A study of Danio rerio with 28 samples.

Results

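The collagen chain genes were the 53 gene rows named col, a type number, the letter a and a chain number, out of 27652 gene rows in 28 Drop-seq libraries of adult zebrafish liver. They were taken by name alone and fell into 15 fibrillar chains (types I, II, V, XI, XXIV and XXVII), 9 basement membrane chains (types IV, XV and XVIII) and 29 other chains. Drop-seq tags the 3′ end of each captured mRNA with a molecular barcode, so the values are counts of distinct molecules (UMIs), which are not divided by gene length, and CPM is a gene's UMIs per 1000000 UMIs of the cells summed.

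Collagens are matrix proteins made of chains that wind round each other into a long helix in the endoplasmic reticulum and are then secreted, trimmed and crosslinked. Fibrillar collagens form the tension bearing fibres of connective tissue, type IV collagen forms the network of basement membranes under epithelium and endothelium, and types VI, VIII, XII and XIV form filaments, short chain networks or links on the surface of fibrils. In mammalian liver, hepatic stellate cells and portal fibroblasts are known as the main makers of fibrillar collagen in fibrosis, while endothelium and bile ducts contribute to basement membranes.

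The fish studied over time carried Tg(Tp1:CreERT2), whose Notch responsive Tp1 element drives an inducible Cre, together with the ubiquitous reporter Tg(-3.5ubb:LOXP-EGFP-LOXP-mCherry), so that biliary epithelial cells (BECs) of the liver and their descendants become mCherry+. They also carried Tg(fabp10a:CFP-NTR), which gives hepatocytes a nitroreductase, so that metronidazole ablates them. Sorted mCherry+ cells came from uninjured fish, from mock fish, from fish at 0 dpa (days postablation) and from those of 4 later times (1, 2, 3 and 7 dpa), with 3 libraries each, and 1 library held sorted GFP+ cells of uninjured fish. The remaining 6 libraries held live nucleated cells of uninjured livers of the TU strain, sorted for no reporter. The labels say that the fish were adult and give no further age, and they do not say whether replicates came from separate fish, so p-values below measure the spread between these libraries only.

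Called cells numbered 5879 in the 6 unsorted libraries and 19963 in the 22 sorted ones, and library totals ran between 926798 and 7296066 UMIs. Unsorted replicate 5 was the shallowest of its group, with 1337430 UMIs against 4531545 or more in the other 5 libraries. Of 25777 distinct cell barcodes, 53 occurred in 2 or more libraries, with at most 4 shared by any pair. Cell types were clusters made and named without collagen genes, and a name ending in -like rests on a fixed marker list.

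The fibroblast label was not borne out cleanly by the markers. The cluster that carried it in the unsorted livers (54 cells) was led by cfd, icn, podxl and anxa1a, and it is called podxl-led here. Its summed mesothelial markers stood at 14052 CPM (7 of 8 markers in the files detected, wt1b at 0), its summed fibroblast markers at 1336 CPM (8 of 10 detected, pdgfra and fbln1 at 0) and its summed stellate markers at 1906 CPM (8 of 9 detected, lrata at 0). Sums weigh abundant genes most, and the naming score, which scales each gene to its highest cluster, set the lists closer. For the podxl-led cluster of 54 cells at Leiden resolution 1 it was 0.875 for mesothelial and 0.79 for fibroblast markers, with 7 markers of each list counted. The stellate-like cells (59 cells) held all 9 stellate markers, summing to 7357.4 CPM. The endothelial-like cells (389 cells) held all 10 endothelial markers (3556.5 CPM) and the BEC-like cells (186 cells) all 10 BEC markers (16808.5 CPM). Hepatocyte-like cells also had UMIs of every one of these markers, but at summed levels of 12.1, 16.5 and 732.3 CPM. Hepatocyte markers summed to more than the own markers of each type, at 50199.9, 51068.4 and 27959.3 CPM in the same order.

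Collagen UMIs were rare in uninjured liver. The called unsorted cells held 2716 of them, 127 CPM, while the barcodes too shallow to be called cells held 3429, 399 CPM, and for 50 of the 53 chains the CPM outside cells was above that in them. All 53 chains had a UMI in the called unsorted cells and 43 had 10 or more, while 52 had a UMI in the called sorted cells and 48 had 10 or more. Hepatocyte-like cells (4052 cells) carried 48.4% of the collagen UMIs on 85.7% of all UMIs. The levels of the leading chains are therefore given beside those outside cells or in hepatocyte-like cells. These levels are descriptions without a test, because the cell types are clusters of the same cells, and in summed cells fewer producing cells and less RNA per cell cannot be told apart.

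Stellate-like cells held 173 collagen UMIs, which made 1333 CPM (95% exact Poisson interval 1142 to 1547, counting error only), and podxl-led cells held 138, 1048 CPM (880 to 1238). Endothelial-like cells held 413, 641 CPM (581 to 706), and BEC-like cells held 72, 232 CPM (182 to 292), against 71.5 CPM (67.7 to 75.5) in hepatocyte-like cells. Together the 59 stellate-like and 54 podxl-led cells carried 6.37% and 5.08% of all collagen UMIs on 0.61% each of all UMIs. The classes were spread differently over the types, as the plot of collagen classes by library shows.

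**Figure D1:**
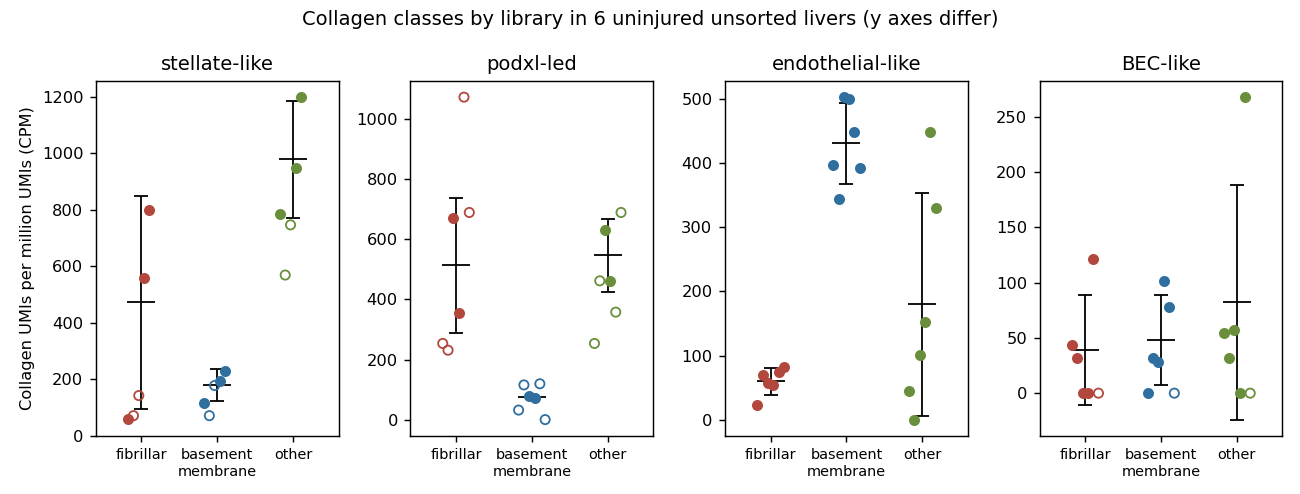
Collagen UMIs per 1000000 UMIs (CPM, linear y axes that differ between panels) by class in 4 cell types of the uninjured unsorted livers; each point is a library, open where it held under 10 cells of the type, in order of replicate number, and the bar and whiskers are mean ± SD over the libraries with 10 or more cells. Basement membrane chains lie between 345 and 503 CPM in endothelial-like cells of all 6 libraries, above the fibrillar chains of the same cells in each.

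In endothelial-like cells the basement membrane class led, with 431 ± 63.8 CPM (SD, n = 6 libraries), against 60.2 ± 21.2 CPM for fibrillar and 180 ± 175 CPM for other chains. Nearly all of it came from col4a1 and col4a2, the chains of the main type IV collagen of basement membranes, which neighbouring genes encode in mammals. The col4a1 level in libraries 1 to 6 was 193, 172, 230, 279, 187 and 227 CPM (153 UMIs in all), and that of col4a2 was 182, 172, 259, 197, 112 and 145 CPM (123 UMIs). Both chains were thus present in every library. Outside cells col4a1 stood at 46.5 CPM and col4a2 at 55.4 CPM, and in hepatocyte-like cells at 1.74 and 2.99 CPM. A col4a1 UMI was seen in 27.5% of endothelial-like cells (median 1385 UMIs per cell), against 0.69% of the deeper hepatocyte-like cells (median 3519).

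Beyond these chains, col6a3, a chain of the beaded filament collagen VI, stood at 70.5 ± 56.1 CPM in endothelial-like cells (SD, n = 6), against 25.9 CPM outside cells and 0.76 CPM in hepatocyte-like cells. It was absent from replicate 2 and highest in replicates 5 and 6, at 150 and 124 CPM. The type IV chain col4a6 stood at 19.4 ± 28.1 CPM, of which replicate 5 alone had 74.8 CPM from 2 UMIs. The fibril associated chains col12a1a and col12a1b stood at 26.7 ± 43.5 and 31.3 ± 46.3 CPM and were at 0 in replicates 1, 2 and 3. The fibrillar chains col5a1, col11a1b and col1a1b had only 10, 5 and 4 UMIs in these cells, near or below their levels outside cells of 13.7, 13.04 and 8.73 CPM.

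**Figure D2:**
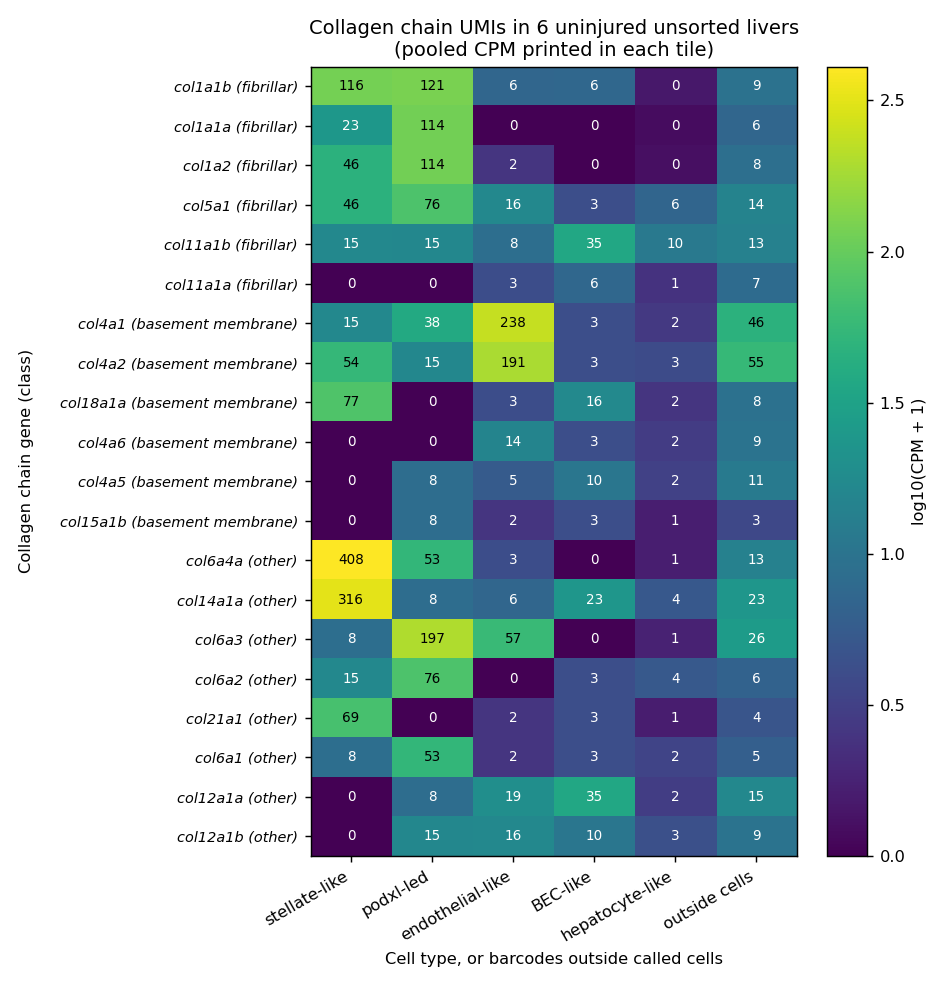
Pooled CPM of 20 named collagen chain genes (rows, with class) in 5 cell types of the 6 uninjured unsorted livers and in barcodes outside called cells (columns); colour is log10(CPM + 1) and the number in each tile is the CPM. The tiles of col6a4a and col14a1a stand out in stellate-like cells, col6a3 and the type I chains in podxl-led cells, and col4a1 and col4a2 in endothelial-like cells.

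In stellate-like cells the other class led, with 979 ± 208 CPM (SD, n = 3 libraries with 10 or more cells), against 472 ± 378 CPM for fibrillar and 180 ± 57.5 CPM for basement membrane chains. The largest share came from col6a4a, a collagen VI chain, and col14a1a, the chain of collagen XIV that binds to the surface of fibrils. In the 5 libraries with such cells (11, 6, 7, 19 and 16 cells in replicates 1 to 5), col6a4a stood at 408, 285, 320, 503 and 457 CPM and col14a1a at 350, 213, 391, 279 and 286 CPM. Both were found in each of these libraries, against 13.2 and 22.6 CPM outside cells and 0.65 and 4.30 CPM in hepatocyte-like cells.

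The type I chain col1a1b had 15 UMIs in stellate-like cells, at 58.3, 0, 71.1, 140 and 343 CPM in the same order, and the other type I chain col1a2 and the type V chain col5a1 had 6 UMIs each. The basement membrane chain col18a1a, whose cleavage releases the fragment endostatin, had 10 UMIs, of which 9 came from replicates 4 and 5, and col21a1, a fibril associated chain, had 9 UMIs, of which 8 came from these replicates. Replicates 1, 2 and 3 thus contributed few of these UMIs. Of the type IV chains, col4a2 had 7 UMIs (53.9 CPM) and col4a1 had 2 (15.4 CPM), both close to or under the levels outside cells.

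Podxl-led cells held fibrillar and other chains in similar amounts, 501 CPM (388 to 638) and 478 CPM (368 to 612), and few basement membrane chains, 68.3 CPM (31.2 to 130). All 3 type I chains were counted: col1a1b with 16 UMIs (121 CPM), col1a1a with 15 (114 CPM) and col1a2 with 15 (114 CPM), where the levels outside cells were 8.73, 6.29 and 7.92 CPM and those in hepatocyte-like cells were 0.49, 0.22 and 0.27 CPM. The col1a1b and col1a2 UMIs came from all 6 libraries, with 3 to 18 podxl-led cells in each. Collagen VI was present through col6a3 (26 UMIs, 197 CPM), col6a2 (10 UMIs, 75.9 CPM) and col6a1 (7 UMIs, 53.1 CPM), while col6a4a, the leading chain of stellate-like cells, stood at 53.1 CPM. In the libraries with 10 or more cells (replicates 3 and 4), col6a3 stood at 257 and 212 CPM. Of the basement membrane chains, col4a1 had 5 UMIs, col4a2 had 2 and col15a1b had 1.

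In BEC-like cells of the unsorted livers no class stood out, and most of the signal lay in 1 library. The other chains stood at 82.2 ± 106 CPM, the basement membrane chains at 47.9 ± 40.9 CPM and the fibrillar chains at 39.3 ± 49.5 CPM (SD, n = 5 libraries with 10 or more cells). Replicate 5 held 85 of the 186 cells and all 11 UMIs of col11a1b, all 11 of col12a1a, all 5 of col18a1a and all 3 of col12a1b. Hepatocyte-like cells of this library also held col11a1b and col12a1b, at 118.2 and 39.4 CPM, against at most 24.8 and 5.34 CPM in those of other libraries. In its BEC-like cells these chains stood at 94.9 and 25.9 CPM. Its hepatocyte-like cells held col12a1a at only 4.92 CPM and had no UMI of col18a1a. The remaining leading chains were col14a1a with 7 UMIs, col4a5 with 3, col11a1a and col1a1b with 2 each, and col15a1b with 1. Their pooled CPM lay between 3.22 and 22.6, and the level outside cells was within the counting interval of each.

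Genes that fold, trim and bind collagen were also unevenly spread over the types. The procollagen chaperone serpinh1b (Hsp47) stood at 740 CPM in stellate-like, 645 CPM in podxl-led and 449 CPM in endothelial-like cells, and was not among the 3 leading folding genes of BEC-like cells, which were ppib (239 CPM), p4hb (74.1 CPM) and mia3 (29.0 CPM). Hepatocyte-like cells held ppib at 236.6 CPM and p4hb at 174.7 CPM. The enhancer of procollagen C-terminal trimming pcolcea stood at 763 CPM in stellate-like cells, from 99 UMIs, and at 83.5 CPM in podxl-led cells, from 11. Of the collagen receptors, the integrin chain itga1 led in podxl-led (114 CPM), stellate-like (116 CPM) and endothelial-like cells (96.2 CPM), and the collagen binding kinase ddr1 led in BEC-like cells (45.1 CPM). The crosslinking enzyme gene loxl3b stood at 123 CPM in BEC-like cells, from 38 UMIs.

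Over the course of regeneration only BEC-like cells were numerous enough for a test. The mCherry+ libraries held 987 of them in uninjured fish, 479 in mock fish, 536 at 0 dpa, 855 at 1 dpa and 1109 at 2 dpa. They held 177 at 3 dpa and 60 at 7 dpa, and over all sorted libraries they held 1109 collagen UMIs. Endothelial markers summed to at most 46.5 CPM, stellate markers to at most 31.3 CPM and fibroblast markers to at most 13.4 CPM in these cells in any state. These lists do not include the mesothelial markers, which led the podxl-led cells. In BEC-like cells of unsorted livers mesothelial markers summed to 602.8 CPM, against 14052.2 CPM in podxl-led cells. Depth differed between states: a library's BEC-like cells averaged 4867 to 5643 UMIs per cell at 2 dpa, against 747 to 816 in mock fish. Different clusters held most BEC-like cells of each state: 707 of the 771 cells in the cluster led by si:ch211-153b23.5 and tpm4a were from 1 dpa, while 2 further clusters, both with fxyd1 and si:ch211-137i24.10 among their leading genes, held 541 and 426 of the 2 dpa cells.

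Summed over all chains, the collagen level of BEC-like cells was 183, 239 and 241 CPM in the 3 uninjured mCherry+ libraries, 146, 231 and 154 CPM in mock, and 175, 158 and 144 CPM at 0 dpa. It was 98.2, 100.3 and 91.6 CPM at 1 dpa, 65.4, 73.5 and 64.0 CPM at 2 dpa, and 46.2, 74.1 and 57.8 CPM at 3 dpa. At 7 dpa 1 UMI was counted in all 60 cells. The 1, 2 and 3 dpa libraries lay below all of the uninjured, mock and 0 dpa libraries. Outside cells the collagen level also differed between states, with 252.3 CPM in uninjured mCherry+ fish, 263.4 CPM in mock, 192.4 CPM at 0 dpa, 153.5 CPM at 1 dpa, 181.6 CPM at 2 dpa and 88.3 CPM at 3 dpa. In mock and at 0 to 3 dpa every library of BEC-like cells lay below the lowest outside level of its state. BEC-like cells of the 1, 2 and 3 dpa libraries were also deeper, with 2364 to 5643 UMIs per cell. In the uninjured, mock and 0 dpa libraries they had 747 to 1567. The part of depth in the lower collagen level at 1, 2 and 3 dpa was not tested.

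Of the 53 chains, 21 had at least 15 UMIs over all sums and were tested among 14859 genes, with edgeR's quasi-likelihood test and p-values adjusted by the Benjamini-Hochberg method. At 1 dpa against 0 dpa 2 of 21 chains passed an adjusted p of 0.05, col8a1a higher and col18a1a lower, where 14.9% of all genes tested passed. At 2 dpa against 1 dpa 2 passed, col8a1a and col8a1b, both lower, where 17.3% of all genes passed. Against mock, 1 dpa had 2 (col8a1a higher, col18a1a lower), where 22.6% of all genes passed, and 2 dpa had 2 (col16a1 and col4a4, both lower), where 27.2% passed. The counts of chains thus stood near or below the background in each comparison, and the median log2 fold change of the 21 chains was -0.65 at 1 dpa against 0 dpa and -0.56 at 2 dpa against 1 dpa, beside 0.26 and -0.03 for all genes.

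The clearest change was in col8a1a, a chain of the short chain collagen VIII, which forms a network in some basement membranes and vessel walls in mammals. Its UMIs in BEC-like cells numbered 30, 23 and 18 in the 1 dpa libraries, against 0, 2 and 3 in the 0 dpa libraries, where the scaled levels were 48.5, 44.5 and 29.3 CPM at 1 dpa, against 0, 13.1 and 16.4 CPM at 0 dpa. The 2 states did not overlap, and the log2 fold change was 2.03 (SE 0.64, edgeR adjusted p = 0.0136). In the mock libraries no UMI was counted, so the 1 dpa level was at least 4.17-fold higher than the limit that 3 UMIs over the mock group would allow (edgeR adjusted p = 2.37e-05, n = 3 libraries each).

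At 2 dpa the level had dropped again. The 2 dpa libraries held 5, 11 and 5 UMIs of col8a1a, or 2.96, 7.61 and 2.69 CPM, all below the 1 dpa libraries, with a log2 fold change of -3.18 (SE 0.41, edgeR adjusted p = 3.60e-13). At 3 dpa it stood at 13.8, 23.3 and 11.9 CPM from 2, 3 and 3 UMIs, above each of the 2 dpa libraries, a difference that did not pass (log2 1.79, SE 0.73, edgeR adjusted p = 0.0988). At 7 dpa no UMI was counted, where 3 UMIs would make 33.4 CPM.

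A col8a1a UMI was seen in 58 of the 855 BEC-like cells at 1 dpa, 6.78% (median 1938 UMIs per cell), with at most 2 in a cell. It was seen in 1.8% of the BEC-like cells at 2 dpa (median 4376). At 3 dpa it was seen in 8 of the 177 BEC-like cells, 4.52% (median 2393), against 0.14% of the 2074 hepatocyte-like cells (median 4795). Outside cells col8a1a moved with the state too: it stood at 12.6 CPM at 1 dpa (5.05 to 19.98 CPM in the 3 libraries, 28 UMIs), against 1.99 CPM at 0 dpa (2 UMIs) and 0.86 CPM in mock (1 UMI), and at 5.68 CPM at 2 dpa. The part of RNA from outside cells in the difference was not tested. The cluster of 771 cells that held most of the 1 dpa cells carried 69 of its UMIs. Markers of other cell types also moved with the state: macrophage markers, all 8 of them detected, summed to 616 CPM in BEC-like cells at 1 dpa, against 161 CPM at 0 dpa and 140 CPM in mock, and to 87.7 CPM at 2 dpa. Pooled over all sorted libraries, col8a1a itself stood at 1.0 CPM in macrophage-like, 9.7 CPM in BEC-like and 22.9 CPM in the few podxl-led cells. In unsorted livers it stood at 30.4 CPM in podxl-led and 7.7 CPM in stellate-like cells, with no UMI in BEC-like cells. The part of RNA from macrophages or podxl-led cells in the difference was not tested. With the 5% of cells of highest doublet score left out, col8a1a at 1 dpa kept a log2 fold change of 2.19 against 0 dpa (edgeR adjusted p = 0.014) and, at 2 dpa against 1 dpa, of -3.58 (edgeR adjusted p = 1.65e-13). The call against 0 dpa was lost without 0 dpa replicate 1, the library with no UMI of it (log2 1.46, edgeR adjusted p = 0.165), and without 1 dpa replicate 1 (log2 1.87, edgeR adjusted p = 0.0503).

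**Figure D3:**
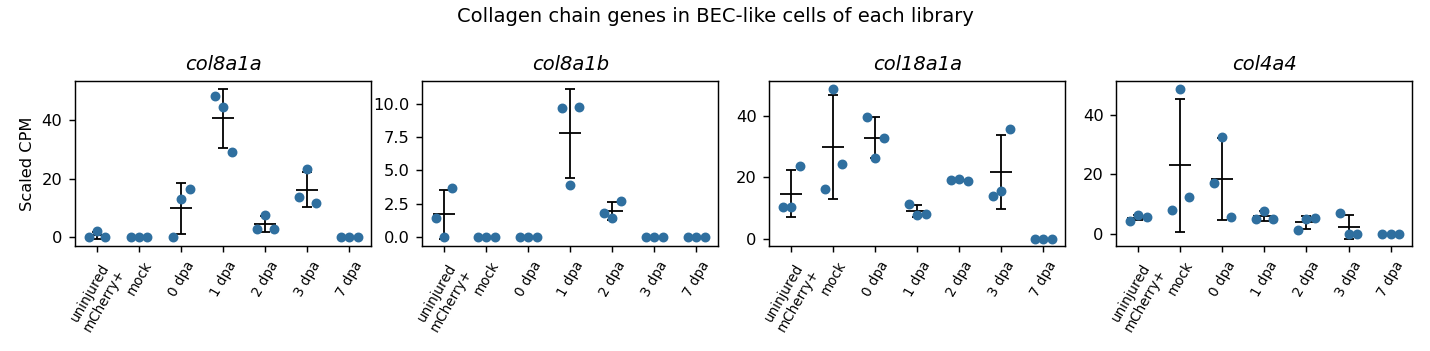
Scaled CPM (linear y axes that differ between panels) of 4 collagen chain genes in the BEC-like cells of each mCherry+ library; points are libraries, and the bar and whiskers are mean ± SD of 3 libraries in uninjured and mock fish and at 0 to 7 dpa. The 1 dpa points of col8a1a lie between 29.3 and 48.5 CPM, above every other library shown, and those of col18a1a lie between 7.74 and 11.3 CPM, below the 26.1 to 39.5 CPM of 0 dpa.

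Its paralogue col8a1b was scarce. It had 6, 2 and 6 UMIs at 1 dpa (9.70, 3.87 and 9.75 CPM) and 3, 2 and 5 UMIs at 2 dpa (1.78, 1.38 and 2.69 CPM), and it had none in mock, at 0 dpa, at 3 dpa and at 7 dpa. It was lower at 2 dpa than at 1 dpa, with a log2 fold change of -1.87 (SE 0.70, edgeR adjusted p = 0.0444), a call kept by 5 of the 16 alternatives that gave an adjusted p. Of its UMIs at 1 dpa, up to 3 came from a single cell. The third chain of this type, col8a2, had at most 3 UMIs in any library and passed no comparison.

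The chain col18a1a, a heparan sulphate bearing collagen of epithelial and vascular basement membranes, was lower at 1 dpa. Its level was 11.3, 7.74 and 8.13 CPM at 1 dpa (7, 4 and 5 UMIs), against 39.5, 26.1 and 32.9 CPM at 0 dpa (7, 4 and 6 UMIs), with no overlap and a log2 fold change of -1.83 (SE 0.58, edgeR adjusted p = 0.0153). At 1 dpa it was also lower than in mock, where the libraries stood at 16.03, 48.8 and 24.4 CPM, with a log2 fold change of -1.65 (SE 0.65, edgeR adjusted p = 0.0479). At 2 dpa it stood at 18.95, 19.4 and 18.8 CPM from 32, 28 and 35 UMIs, above each 1 dpa library (log2 1.04, SE 0.43, edgeR adjusted p = 0.084), a difference that passed with edgeR's default TMM, with DESeq2's size factors and with only the states compared. Outside cells col18a1a stood at 5.87 CPM at 1 dpa, against 10.97 CPM at 0 dpa and 19.7 CPM in mock. At 2 dpa it stood there at 17.8 CPM (15.7 to 19.2 CPM in the 3 libraries). The part of RNA from outside cells in these differences was not tested. Its UMIs in BEC-like cells numbered 16 at 1 dpa and 17 at 0 dpa, on a larger summed depth at 1 dpa. The call against 0 dpa was lost without 0 dpa replicate 1 (log2 -1.65, edgeR adjusted p = 0.113), with doublets left out (log2 -1.64, edgeR adjusted p = 0.07) and with DESeq2's size factors (log2 -1.33, edgeR adjusted p = 0.0845), and that against mock was kept by 5 of 17 alternatives.

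Both chains called against mock at 2 dpa rested on mock replicate 2. The type IV chain col4a4, which pairs with col4a3 and col4a5 in mammals, had 1.18, 4.84 and 5.37 CPM at 2 dpa (2, 7 and 10 UMIs), against 8.02, 48.8 and 12.2 CPM in mock (1, 6 and 2 UMIs), a log2 fold change of -2.46 (SE 0.75, edgeR adjusted p = 0.00584). Without mock replicate 2 it was -1.43 (edgeR adjusted p = 0.4). The fibril associated chain col16a1 had 1, 0 and 1 UMIs at 2 dpa, against 0, 3 and 0 in mock, with overlapping groups and a log2 fold change of -3.53 (SE 1.33, edgeR adjusted p = 0.032). Without mock replicate 2 the direction turned, to a log2 fold change of 1.36 (edgeR adjusted p = 0.797).

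In the remaining comparisons neither edgeR, with the scaling and filter given, nor DESeq2's Wald test called any of the 21 chains, while some alternatives called 1 at 3 dpa against 2 dpa (col8a1a) and against mock (col8a1a or col4a4). This held at 0 dpa against mock (2 chains with an unadjusted p under 0.05, background 8.2%), 3 dpa against 2 dpa (1 chain, background 2.85% higher and 9.15% lower), 7 dpa against 3 dpa (1 chain, background 3.44%), 3 dpa against mock (5 chains, background 10.9%), 7 dpa against mock (1 chain, background 2.08%) and mock against uninjured mCherry+ fish (3 chains, background 5.9%). Each background here is the share of all genes with an adjusted p under 0.05. It cannot be set beside these counts of chains, which use the unadjusted p. Depth limited each of these comparisons: 3 UMIs corresponded to 8.06 CPM in mock, 5.81 CPM at 0 dpa, 5.50 CPM at 3 dpa and 33.4 CPM at 7 dpa. The fibril associated chain col12a1a, with 15, 19 and 15 UMIs in uninjured mCherry+ fish the best counted chain there, stood at 0, 8.14 and 30.5 CPM in mock, against 21.8, 38.7 and 27.3 CPM in uninjured mCherry+ fish (log2 -0.97, SE 0.66, edgeR adjusted p = 0.479).

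Several genes that act on collagen also changed at 1 dpa. At 1 dpa against 0 dpa, 3 of 9 tested collagen receptor genes rose and none fell, 2 of 16 basement membrane partners rose and none fell, and 3 of 19 folding genes rose and none fell, where 10.3% of all genes rose and 4.53% fell. The counts of basement membrane partners and folding genes thus stood near the share of all genes. The integrin chain itga2.1, of the family of collagen binding α2 integrins, had 29, 19 and 17 UMIs at 1 dpa, against none in the 0 dpa libraries, which is at least 5.3-fold higher than 3 UMIs over that group (edgeR adjusted p = 1.15e-05, n = 3 libraries each). Its relative itga2.3 stood at 56.6, 63.8 and 47.2 CPM at 1 dpa, against 16.9, 0 and 16.4 CPM at 0 dpa (log2 2.23, SE 0.57, edgeR adjusted p = 0.00129), and itgb1b, a β1 partner chain of such integrins, at 51.7, 31.0 and 37.4 CPM, against 5.65, 26.1 and 10.96 CPM (log2 1.54, SE 0.57, edgeR adjusted p = 0.0477). The 3 receptor genes were apart from 0 dpa in every library.

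Of the basement membrane partners, hspg2, the core protein of perlecan, stood at 112, 75.4 and 74.8 CPM at 1 dpa, against 22.6, 32.7 and 27.4 CPM at 0 dpa (log2 1.67, SE 0.40, edgeR adjusted p = 5.44e-04). The proteoglycan gene agrn stood at 87.3, 87.0 and 78.0 CPM, against 39.5, 26.1 and 27.4 CPM (log2 1.42, SE 0.40, edgeR adjusted p = 0.00403). The folding genes that rose were ppib (log2 1.24), p4hb (log2 0.97) and crtap (log2 3.32, SE 1.02, from 38 UMIs at 1 dpa and 1 at 0 dpa), which encode a prolyl isomerase, the β subunit of prolyl 4-hydroxylase and a partner of prolyl 3-hydroxylase. The receptor genes that rose, hspg2, ppib and p4hb were also called higher at 1 dpa than in mock, while agrn and crtap were not. In the mock libraries agrn stood at 56.1, 57.0 and 30.5 CPM. There crtap stood at 16.03, 40.68 and 24.43 CPM, against 17.78, 30.95 and 17.88 CPM at 1 dpa. Of 11 tested interstitial matrix genes 1 rose and 1 fell, and of 9 tested processing and crosslinking genes none rose and 2 fell. The interstitial gene thbs1b, a thrombospondin, rose (log2 3.07) and emilin1a fell (log2 -3.58, from 3 UMIs at 1 dpa), and of the crosslinking genes loxl3b (log2 -3.15) and pxdn (log2 -2.22), a peroxidase that crosslinks type IV collagen, fell. The gene thbs1b is also on the thrombocyte marker list, whose other 5 genes summed to 5.21 CPM at 1 dpa (11 UMIs), against 25.2 CPM at 0 dpa (13 UMIs).

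At 2 dpa the receptor genes, the basement membrane partners and thbs1b, which had risen, were lower again than at 1 dpa. Macrophage markers in BEC-like cells, given above beside col8a1a, were likewise higher at 1 dpa than at 0 dpa and 2 dpa. The part of RNA from macrophages or from outside cells in these differences was not tested. None of the folding genes that had risen was called lower. The other genes named here had not been called at 1 dpa against 0 dpa. Of the receptors 4 of 9 fell and none rose, led by itga2.3 (log2 -2.65, SE 0.34, edgeR adjusted p = 1.98e-13) and followed by ddr1 (log2 -1.89), itgb1b (log2 -1.41) and itga2.1 (log2 -1.17), where 9.22% of all genes fell and 8.1% rose. Of the basement membrane partners 4 of 16 fell and none rose, namely hspg2 (log2 -1.57), agrn (log2 -1.46), lamc1 (log2 -1.31) and lama5 (log2 -1.01), of which the last pair encode laminin chains. Of 11 interstitial genes 1 rose and 3 fell, of 19 folding genes 1 rose and 1 fell, and of 9 processing and crosslinking genes 2 rose and 1 fell. Among the interstitial genes thbs1b (log2 -3.84), thbs1a (log2 -4.14) and vcanb (log2 -2.63) fell, and postna rose, with 20 UMIs at 2 dpa, at least 2.44-fold higher than 3 UMIs over the 1 dpa group, which had none. Among the folding and crosslinking genes mia2 (log2 -0.87) and loxl2a (log2 -3.69) fell, while p4ha1b (log2 0.84), bmp1a (log2 2.01) and pcolce2b (log2 3.12, SE 0.97, from 35 UMIs at 2 dpa and 1 at 1 dpa) rose.

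**Figure D4:**
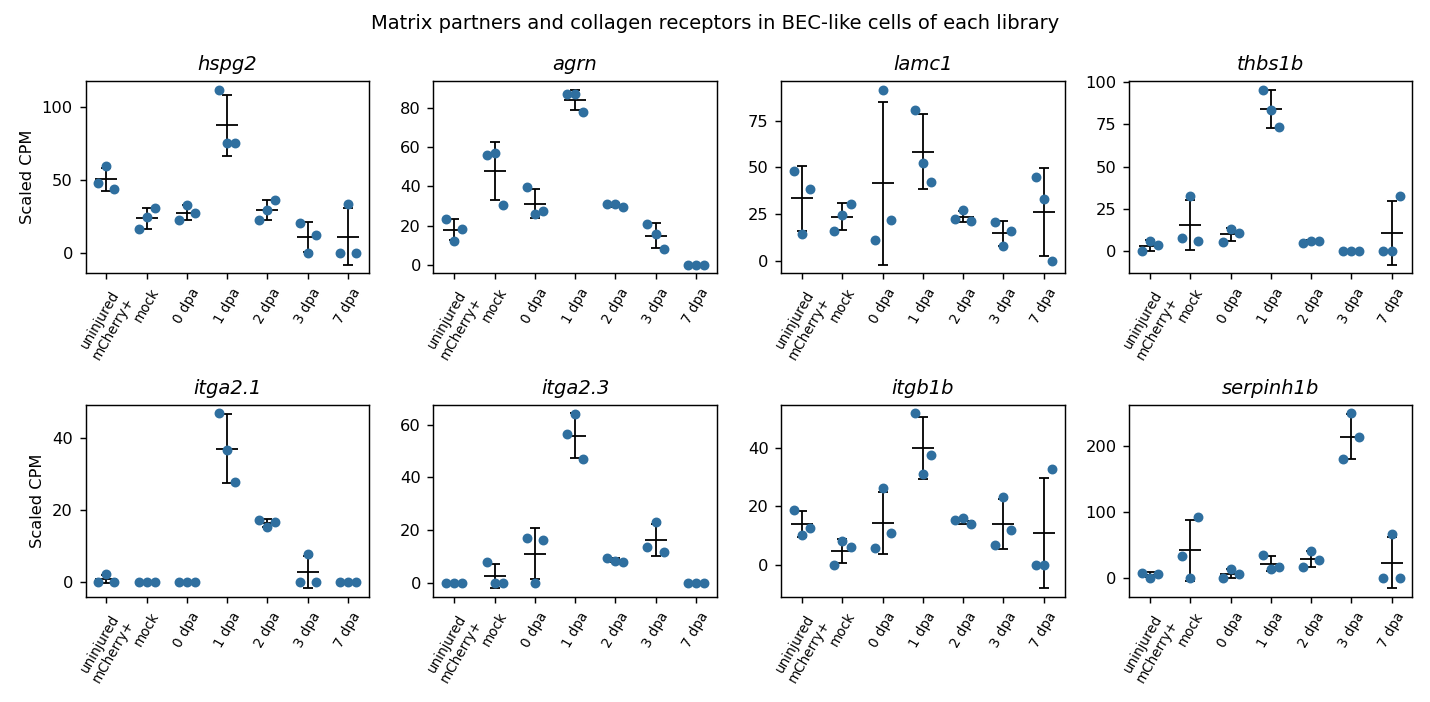
Scaled CPM (linear y axes that differ between panels) of 8 genes that bind, receive or fold collagen in the BEC-like cells of each mCherry+ library; points are libraries, and the bar and whiskers are mean ± SD of 3 libraries per state. The 1 dpa points of hspg2 lie between 74.8 and 112 CPM and those of thbs1b between 73.2 and 95.4 CPM, and serpinh1b stands at 179 to 249 CPM at 3 dpa.

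The chaperone serpinh1b followed another course. It stood at 179, 249 and 213 CPM at 3 dpa, against 16.6, 40.1 and 26.9 CPM at 2 dpa, without overlap (log2 2.94, SE 0.27, edgeR adjusted p = 1.18e-25), and it fell at 7 dpa against 3 dpa (log2 -3.46, SE 0.75, edgeR adjusted p = 2.99e-04), where 2 UMIs were left in 60 cells. None of the 21 collagen chains tested passed at either step. Of these, 11 had no UMI in a state compared at 3 dpa against 2 dpa, and all 21 at 7 dpa against 3 dpa. Counts this low cannot show whether the chains changed with serpinh1b. Hepatocyte markers summed to 15451 CPM in BEC-like cells at 3 dpa, against 2218 CPM at 2 dpa, and their part in the serpinh1b difference was not tested. At 3 dpa against 2 dpa lamb1b (log2 3.22) and emilin1a (log2 3.52) also rose and p4ha1b (log2 -1.44) and itga2.1 (log2 -2.94) fell.

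At 0 dpa against mock crtap (log2 -3.61) and serpinh1b (log2 -2.91) fell, serpinh1b with overlapping groups, and pxdn rose, with 10 UMIs at 0 dpa, at least 2.4-fold higher than 3 UMIs over the mock group, which had none. In mock against uninjured mCherry+ fish loxl3b was lower, with 16.03, 57.0 and 24.4 CPM in mock, against 179, 161 and 131 CPM in uninjured mCherry+ fish (log2 -2.30, SE 0.39, edgeR adjusted p = 3.33e-07). In the same comparison pxdn had no UMI in mock, against 43 in uninjured mCherry+ fish, at least 3.48-fold lower, and serpinh1b was higher with overlapping groups (log2 3.24).

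The podxl-led, stellate-marked and endothelial-like cells of the sorted libraries were too few for a test in any pair of states, so only counts are given. Podxl-led cells numbered 39 at 2 dpa, with 12, 15 and 12 in the 3 libraries, against 8 in uninjured mCherry+ fish, 7 in mock and 2, 4 and 2 at 0, 1 and 3 dpa. At 2 dpa they held 121 fibrillar UMIs, or 1006 CPM (835 to 1202), with 1309, 877 and 814 CPM in the 3 libraries. Their leading chains were col1a1b and col1a2 with 38 UMIs each (316 CPM), col5a1 with 21 (175 CPM), col6a3 with 18 (150 CPM) and col1a1a with 15 (125 CPM). The basement membrane class stood at 108 CPM (57.5 to 185) and the other chains at 374 CPM (273 to 501). In uninjured mCherry+ fish the 8 cells held 6 fibrillar UMIs, 509 CPM (187 to 1108), an interval that overlaps that of 2 dpa. These cells carried mesothelial markers at 6775 CPM, fibroblast markers at 574 CPM (dcn, lum and fbln1 at 0) and BEC markers at 4132 CPM. Their cluster of 87 sorted cells, stellate-marked cells included, scored 0.983 for mesothelial, 0.873 for stellate and 0.637 for fibroblast markers. It was thus closer to the stellate list than to the fibroblast list.

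**Figure D5:**
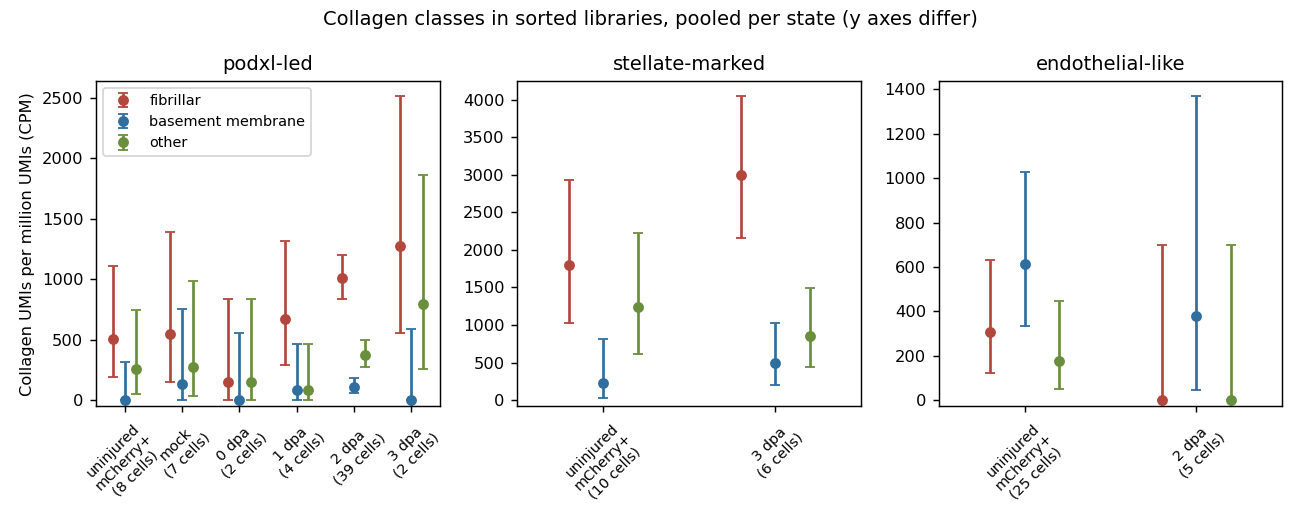
Collagen classes (colour) in 3 scarce cell types of the sorted libraries, summed over the libraries of each state, for states with at least 5000 UMIs of the type; points are CPM (linear y axes that differ between panels), whiskers are 95% exact Poisson intervals that cover counting error only, and the number of cells stands under each state. Fibrillar chains of podxl-led cells stand at 1006 CPM at 2 dpa, while the intervals of states with under 10 cells are wide.

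Stellate-marked cells, those of the same cluster with more stellate than mesothelial marker UMIs, numbered 6 at 3 dpa and 10 in uninjured mCherry+ fish, with at most 2 in any other state. The 6 cells at 3 dpa held 61 collagen UMIs, of which 42 were fibrillar, 2995 CPM (2158 to 4048), led by col5a1 with 17 UMIs and col1a1b and col1a2 with 11 each. The 10 uninjured mCherry+ cells held 29, of which 16 were fibrillar, 1805 CPM (1032 to 2931), led by col14a1a with 8 UMIs (7 of them in replicate 1) and col1a2 with 6. By library the fibrillar UMIs numbered 17, 6 and 19 at 3 dpa (2588, 4144 and 3163 CPM), against 2, 14 and 0 in uninjured mCherry+ fish (564.7, 4322 and 0 CPM). Replicate 2 thus held most of the uninjured count, and without it 355.6 CPM (43.1 to 1284) was left. Endothelial-like cells numbered 25 in uninjured mCherry+ fish, 6 in mock, 2 at 0 dpa and 5 at 2 dpa. The basement membrane class of the 25 uninjured mCherry+ cells stood at 612 CPM (335 to 1027) from 14 UMIs, of which col4a1 gave 7, beside 455 CPM (404 to 510) in endothelial-like cells of unsorted TU livers. By mCherry+ library the class had 7, 0 and 7 UMIs (722.2, 0 and 837.8 CPM) in 11, 5 and 9 cells.

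In the hepatocyte-like cells of the sorted libraries, which at 3 and 7 dpa had been sorted as mCherry+, the level of a few chains differed between states. These chains were chosen after their values were seen, and no test was made. The type V chain col5a1 stood at 35.9 CPM in the GFP+ library (127 UMIs), and at 2.09, 1.26 and 1.98 CPM in the 3 dpa libraries and 14.1, 7.87 and 16.5 CPM in the 7 dpa libraries. The collagen VI chain col6a1 stood at 18.95 CPM in the GFP+ library, at 0.63, 1.51 and 0.66 CPM at 3 dpa and at 5.13, 4.92 and 3.04 CPM at 7 dpa. Of these 3 states 3 dpa had the lowest levels of both. The few hepatocyte-like cells of mock and uninjured mCherry+ fish were shallow. In uninjured mCherry+ fish col5a1 had 3 UMIs in replicate 1 and 2 in replicate 3 (181 and 122 CPM), above every 3 and 7 dpa library, and none in replicate 2. No col5a1 UMI was counted in those of mock fish, and col6a1 had 1 UMI in replicate 1 of either group. The opposite, a level highest at 3 dpa among the GFP+, 3 dpa and 7 dpa libraries, held for col18a1a. It stood at 1.13 CPM in the GFP+ library, at 3.34, 3.27 and 3.31 CPM at 3 dpa and at 0.85, 1.97 and 1.74 CPM at 7 dpa. The same order held for col8a1b, which had no UMI in the GFP+ library, 10, 11 and 12 UMIs (2.09, 2.77 and 2.65 CPM) at 3 dpa and none at 7 dpa, where 3 UMIs would make 0.85 CPM in the GFP+ library and 1.28 to 1.48 CPM at 7 dpa. Outside cells both chains were also highest at 3 dpa among these states. There col18a1a stood at 4.32 CPM in the GFP+ library, 8.62 CPM at 3 dpa and 1.56 CPM at 7 dpa. For col8a1b the levels outside cells were 0, 1.44 and 0 CPM in the same order. The part of RNA from outside cells in these differences was not tested. In unsorted livers hepatocyte-like cells held col5a1 at 6.04 CPM, below its 13.7 CPM outside cells.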

How the data were processed

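The deposited values are raw counts: per the labels and the files, each library's table holds UMI counts per gene for 5000 barcodes. The submitters' processing notes name STAR 2.5.3, FastQC 0.11.2 and the build GRCz11, and the authors' own cell filter and names were not used here. Called cells were barcodes with a total above their library's mean. They were clustered separately in unsorted and sorted libraries without collagen genes (2000 variable genes, 30 principal components, Leiden resolution 2, leidenalg 0.10.2, scikit-learn 1.9.0), and a cluster of at least 20 cells was named from fixed markers (score of at least 0.4, at least 1.5 times the next class, hepatocytes apart). Classes with fewer than 3 markers in 5% of its cells were passed over, which in 1 BEC-like cluster (230 cells) left out a higher acinar score (0.873, against 0.682 for BEC) and in 1 hepatocyte-like cluster (118 cells) a higher neuron-like one. The podxl-led cells of the sorted libraries were divided by their stellate and mesothelial marker UMIs. Doublets were kept in the values given; the 5% of cells of each library with the highest doublet score were left out as an alternative. The library totals and cells given in the results set the precision, and intervals and limits from 3 UMIs cover counting error only.

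Raw UMIs were summed per library over BEC-like cells (at least 10 cells a sum), genes with 15 or more UMIs over all sums were kept, and edgeR 4.0.16 (quasi-likelihood test, all 7 mCherry+ states in 1 fit, Benjamini-Hochberg over 14859 genes) was run in R 4.3.3. Sums were scaled by TMM over 206 genes counted in every sum, without ribosomal and mitochondrial genes. DESeq2 1.42.0, other scalings, filters, clusterings, cell minimums and fits without each library were alternatives. On counts simulated for these libraries with 200 changed genes, 93 were called at 1 dpa against 0 dpa, of which 2 were false, and 132 at 2 dpa against 1 dpa, of which 2 were false. These counts were drawn independently, with means and spread fitted to the same libraries, and only large changes were simulated. The few false calls therefore do not show how the test holds where libraries depart from that model.

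Named collagen genes were the 3 of highest pooled CPM per class in each of the 4 types and every one called in BEC-like cells. Of the folding, processing, partner and receptor lists, genes called between successive states or in mock against uninjured mCherry+ fish were named. In these comparisons all were named where at most 6 of a list were called. Genes of these lists were also called at 1, 2 and 3 dpa against mock, and apart from those mentioned for 1 dpa they were not named. The members, classes, lists and types were chosen with earlier results of these data known. The 7 dpa libraries are numbered 1, 2 and 31 in the labels.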

Additional observations from a re-analysis of the deposited data

Results flagged for a closer look

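Of 24 groups of library values looked at in unsorted livers, 8 held a library far from the others by Dixon's ratio, where chance gives about 1 in 20. That rate does not hold for counts this sparse: in 5 of the 8 the other libraries were all at 0, which puts the ratio at its maximum. Of the 8, 7 were in replicate 5, the shallowest unsorted library, which also held 85 of the 186 BEC-like cells. In BEC-like cells of replicate 5 the other chains summed to 267.5 CPM, against 0 to 57.1 CPM in the other 4 libraries with 10 or more cells. In the same cells col11a1b and col12a1a stood at 94.9 CPM each, col18a1a at 43.1 CPM and col12a1b at 25.9 CPM, all of them at 0 in the other libraries. Hepatocyte-like cells of replicate 5 held col11a1b at 118.2 CPM and col12a1b at 39.4 CPM, so these chains were not particular to its BEC-like cells. In endothelial-like cells of replicate 5 col12a1a stood at 112.2 CPM from 3 UMIs, against 0 to 27.2 CPM elsewhere, and col4a6 at 74.8 CPM from 2 UMIs, the highest of the 6 libraries. In BEC-like cells of replicate 4 col15a1b stood at 33.8 CPM from 1 UMI, with none in the other libraries.

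Outside the 4 cell types compared, 1 barcode of the neuron-like cells in unsorted replicate 1 held 72 UMIs of the type IV chain col4a5 among its 1358 UMIs. Neuron-like cells as a whole stood at 168.3 CPM of col4a5 with this barcode and at 4.6 CPM without it.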

How the results depend on the processing

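Of the 8 chains by comparison named as called in BEC-like cells, col8a1a kept its call at 2 dpa against 1 dpa (log2 -3.74 to -2.71) and at 1 dpa against mock in 17 of 17 alternatives, and at 1 dpa against 0 dpa in 15 of 17 (log2 1.46 to 2.62), while col18a1a at 1 dpa against 0 dpa kept it in 14 of 17 (log2 -2.08 to -1.33). The number of chains called at 1 dpa against 0 dpa was 1 with doublets left out, and with DESeq2's size factors the 2 called were col8a1a and col8a1b. At 2 dpa against 1 dpa it was 3 with DESeq2's size factors (col11a1a, col18a1a and col8a1a) and with only the states compared (col18a1a, col8a1a and col8a1b), and 1 with library size scaling only, with no filter beyond 1 UMI, with the DESeq2 Wald test (which gave col8a1b no adjusted p) and with doublets left out. At 1 dpa against mock it was 1 with edgeR's default TMM, with no filter beyond 1 UMI, with only the states compared in the fit, with doublets left out, with cells of at least 300 UMIs and with Leiden resolution 1, and 3 with library size only (col4a4 added), while DESeq2's size factors gave col8a1b in place of col18a1a. At 2 dpa against mock it was 1 with edgeR's default TMM, with DESeq2's size factors (col8a1a, higher, in place of col16a1 and col4a4) and with only the states compared, and 3 with library size only, the DESeq2 Wald test and cells of at least 300 UMIs (col5a3a added). At 3 dpa against 2 dpa it was 1, where otherwise 0, with only the states compared and with doublets left out, and at 3 dpa against mock 1 with library size only, default TMM, DESeq2's size factors and Leiden resolution 1. The causes were not tested, except that a fit of only the states compared left fewer chains to test. DESeq2's size factors moved the median of all genes by up to 1.06 on the log2 scale (2 dpa against mock). Leaving out each library in turn gave 0 to 2 chains at 1 dpa against 0 dpa, 1 to 2 at 2 dpa against 1 dpa, 0 to 1 at 3 dpa against 2 dpa, 1 to 3 at 1 dpa against mock, 1 to 3 at 2 dpa against mock, 0 to 1 at 3 dpa against mock and 0 elsewhere. Without mock replicate 2, col16a1 at 2 dpa against mock turned to a log2 fold change of 1.36, the highest of the values without each library, of which the lowest was -4.27. A filter by edgeR's filterByExpr left none of the chains to test.

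Libraries with the same replicate number did not deviate together (correlations of -0.05 to 0.05 over 4526 genes), and a replicate block gave 1 chain in place of 2 at 2 dpa against 1 dpa and at 1 dpa against mock, with no other count changed. With background UMIs subtracted, other chains of stellate-like cells stood at 1180 CPM and basement membrane chains of endothelial-like cells at 719.7 CPM. That setting took the 95th percentile of each gene's background UMI counts off each cell, in the total as well as in the chains. It did not take off the CPM outside cells given above. Without mitochondrial and abundant hepatocyte transcripts in the total, fibrillar chains of podxl-led cells stood at 771.4 CPM, other chains of stellate-like cells at 1465 CPM and basement membrane chains of endothelial-like cells at 689.3 CPM. Without each library in turn these classes ranged over 394.2 to 578.9, 801.5 to 889.9 and 417.2 to 476.6 CPM, basement membrane chains in BEC-like cells of unsorted livers over 25.73 to 63.98 CPM, those in endothelial-like cells of uninjured mCherry+ fish over 481.9 to 775.8 CPM, and fibrillar chains in podxl-led cells at 2 dpa over 843.3 to 1108 CPM. Chosen after seeing the data, leaving out each library put fibrillar chains in stellate-marked cells of uninjured mCherry+ fish at 355.6 to 2631 CPM. For podxl-led cells at 2 dpa, 4 further alternatives chosen after seeing the data gave 969.0 to 1089 CPM. Depth limits most of these values: 32 of the 53 chains had too few UMIs to be tested.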
